A study of Drosophila melanogaster with 12 samples.

Results

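The M1 aminopeptidase genes of the fruit fly were examined in RNA from whole flies. The 8 members, CG31198, CG31343, CG42335, CG8773, CG8774, CG32473, SP1029 and Psa, were chosen by their gene symbol, and all 8 were found among the 16995 genes of both deposited tables. They were picked with the authors' comparisons of these same libraries in view, in which some of them figure. The columns of those comparisons were not used, so that the levels below describe the genes and do not compare genotypes.

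The study asked whether flies respond to free ubiquitin chains at the level of transcription. RNA came from 4 Control, 4 Ub6-GG and 4 Ub6-Stop samples, each of 10 whole flies aged 1 day. Every fly carried 1 copy of the sqh-Gal4 driver, which is active in all tissues and at all stages. Ub6-GG flies also carried 1 copy of a transgene, inserted at Attp40, for a tandem ubiquitin chain that can be joined to other proteins. The transgene of Ub6-Stop flies has the same insertion site, and its chain lacks the terminal glycines needed for that joining. Control flies had the background of the transgenic lines and the driver, without a chain. The labels give no sex.

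M1 aminopeptidases are zinc enzymes that remove amino acids one at a time from the amino end of peptides. Many are anchored in the outer face of the cell membrane, such as aminopeptidase N, which in mammals sits on the brush border of the gut and finishes the digestion of peptides cut by trypsin-like enzymes. In caterpillars, gut members of the family also bind bacterial crystal toxins. The puromycin-sensitive branch, to which Psa belongs, works in the cytosol, where its mammalian counterpart trims peptides. CG31198, CG31343 and CG42335 have been likened to human aminopeptidase N.

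Each level below is the authors' mean log2 CPM, where CPM is a read count scaled to library size, averaged over all 12 libraries of the 3 genotypes. Some members figure in the authors' comparisons, so this mean can mix unlike levels of the 3 genotypes. The order, shares and ratios below are those of this mixture, and the counting intervals do not cover differences between genotypes. The tables hold 0 columns of values per sample, so that the spread of a single gene between replicates cannot be given. A common dispersion of 0.146, 1 value for all genes, could be solved from the levels. It alone puts a margin of about 1.36-fold (95%) on the ratio of a pair of means over 12 libraries. A level of a whole fly cannot tell apart more cells that use a gene and more RNA per cell. Libraries were primed at the poly(A) tail and give reads from the 3′ end, so that levels of different genes need no correction for length. Other differences between genes, such as 3′-end annotation or reads shared by similar members, were not tested. The sizes of the 12 libraries, solved from the levels of genes seen in 1 read, ranged from 1055226 to 2366711 with a median of 1680809. They are on the scale of the authors' mean and may include normalization factors, so they need not equal the reads sequenced. Whether such factors were applied was not tested. The sizes summed to 20213076, so that on this scale 1 CPM stands for 20.2 reads over all libraries. A count of 0, read as a one-sided limit of 3 reads, allows up to 0.148 CPM. The other intervals given are 95% Poisson intervals, or exact binomial ones for ratios. Except where the dispersion is named, they cover counting error only, as molecular identifiers are not named in the sources used here.

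Genes listed as markers of whole-fly tissues were detected. The 3 flight muscle genes ranged from 6.10 to 10.60 on the log2 scale, the 3 fat body genes from 6.98 to 10.87 and the 4 ovary genes from 2.54 to 7.24. The 4 testis and accessory gland genes lay between 6.96 and 9.62, the 3 midgut genes between 5.56 and 10.61, the 3 eye genes between 6.69 and 7.90 and the 3 neuronal genes between 5.66 and 6.68. The 3 ubiquitous genes lay between 10.05 and 11.20. Genes listed for the ovary and for the male reproductive tract were thus both detected in the pooled mean. Among the ovary genes nos, at 2.54, was below the median of all genes (2.64), while osk, vas and bcd were above it. How particular each listed gene is to its tissue was not tested.

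All 8 members were expressed above the median of all genes, which was 2.64 in mean log2 CPM. The genes behind this median include 2186 with no read, and 11795 of the 16995 had a level above 1. The level was highest for CG31198 and CG31343, and these 2 genes alone held 76.5% of the reads of the 8. Together the 8 members took 0.0902% of the CPM scale with the prior count of the authors' mean included. Without it their share was 0.0892% (interval 0.0879% to 0.0905%), from about 18033 reads. Their median level was 5.44.

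CG31198, an aminopeptidase N-like gene on chromosome arm 3R, had a mean log2 CPM of 8.85, which is 460.6 CPM. About 9285 reads stood behind this value, with an interval of 9097 to 9476. The level was above that of 98.0% of all genes. CG31343, on the same arm and of the same kind, followed with 7.81, or 224.5 CPM, from about 4514 reads. Only 603 genes had a higher level than CG31343, and these 2 members were the only ones in the top 10% of all genes. CG31198 had 2.06 times the reads of CG31343 (interval 1.98 to 2.13).

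Psa, the cytosolic puromycin-sensitive aminopeptidase, came next with a mean log2 CPM of 6.01, or 64.5 CPM, from about 1281 reads (interval 1212 to 1353). CG32473 had 5.96, or 62.4 CPM, from about 1238 reads (interval 1170 to 1309). The ratio of Psa to CG32473 was 1.03 with an interval of 0.956 to 1.12, so that the 2 were not resolved beyond counting error alone. Between CG31343 and Psa lay the widest step in the order, a 3.52-fold difference in reads (interval 3.31 to 3.75).

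The 4 remaining members had lower levels. SP1029, a membrane aminopeptidase gene, had a mean log2 CPM of 4.92 from about 590 reads, and CG8773 had 4.70 from about 502 reads. CG42335 had 4.39 from about 399 reads. CG8774 was the lowest with 3.62, or 12.3 CPM, from about 224 reads (interval 196 to 255). Its level was above that of 63.1% of all genes. Among the 11795 genes with a level above 1, CG8774 ranked 6265, which is below their median. Of the 7 pairs of neighbours in the order, Psa and CG32473 were the 1 pair whose ratio interval included 1. With the common dispersion added, the ratio of 3 of the 7 pairs was not resolved from 1. These were Psa to CG32473 (interval 0.755 to 1.42), SP1029 to CG8773 (1.18, interval 0.846 to 1.63) and CG8773 to CG42335 (1.26, interval 0.902 to 1.76). The members' own dispersions were not analysed here. From CG31198 to CG8774 the levels spanned a 41.5-fold range in reads (interval 36.3 to 47.5).

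**Figure D1:**
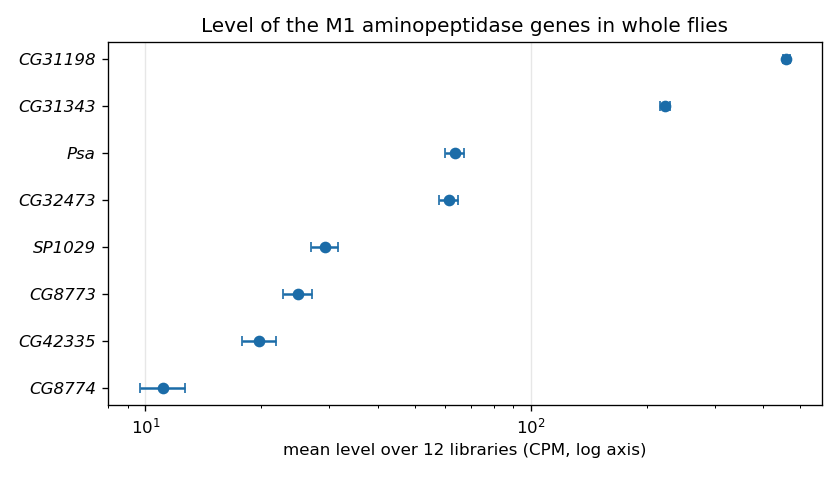
Mean level of each of the 8 M1 aminopeptidase genes over the 12 libraries, in CPM on a log axis, with the prior count taken out. Points are the recovered means and bars are 95% counting intervals, which for CG31198 and CG31343 are about as wide as the points. CG31198 and CG31343 stand apart at the top, Psa and CG32473 coincide within their bars, and CG8774 is lowest.

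Most members are neighbours on the chromosome. In release 6 of the annotation 7 of the 8 lie on chromosome arm 3R and Psa lies on 3L. The authors aligned to the dm3 build, so the annotation was used for names and gene order only. CG31343, CG31198 and CG42335 belong to a row of 5 M1 genes on the forward strand, in the order CG5849, CG31343, CG31233, CG31198, CG42335, with no other protein-coding gene between them. This row held 72.1% of the reads of the 20 M1 family genes in the tables, which were listed by symbol.

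Levels differed widely within the row. CG31198 had 23.3 times the reads of CG42335 next to it (interval 21.0 to 25.8) and 7.13 times those of CG31233 on its other side (interval 6.73 to 7.56). CG5849, at the start of the row, had a mean log2 CPM of 2.67 from about 105 reads. CG31343, its neighbour, had 43.0 times as many (interval 35.4 to 52.7). Beyond the row, Burs, which encodes a subunit of the hormone that hardens the cuticle after emergence, had a level of 1.88, and CG34034 on the other side had 5.88.

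CG8773, CG8774 and CG32473 form another row, on the forward strand of the same arm, also without another protein-coding gene between their starts. CG32473 had 5.53 times the reads of CG8774 (interval 4.79 to 6.40) and 2.47 times those of CG8773 (interval 2.22 to 2.74). CG8773 had 2.24 times those of CG8774 (interval 1.91 to 2.64). The middle gene was thus the lowest of the row. The whole row held about 1964 reads, against 15605 for the row of CG31198. The gene before it, wntD, a Wnt ligand, had a level of 0.57 from about 6 reads.

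SP1029 ends the third row, on the reverse strand of 3R, with CG31445 and CG11951. SP1029 had 9.22 times the reads of CG31445 (interval 7.11 to 12.1) and 20.3 times those of CG11951 (interval 14.0 to 30.6). On the other side of SP1029 lies stg, the Cdc25 phosphatase that starts mitosis, with a level of 6.92.

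**Figure D2:**
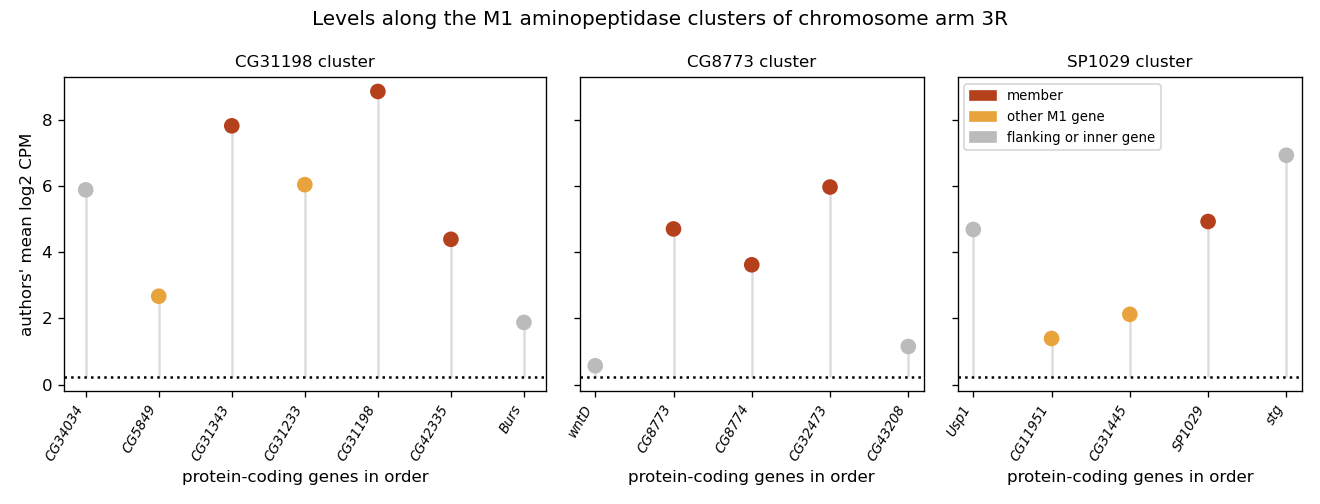
Authors' mean log2 CPM of the protein-coding genes along the 3 rows of M1 genes on chromosome arm 3R, in gene order with the next gene on either side. CG43208 overlaps CG32473, and distances are not to scale. Members, other M1 genes and the genes beside them are coloured, and the dotted line is the value of a gene with no read. The level swings from gene to gene in the row of CG31198, dips at CG8774 and peaks at SP1029 within its row.

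Counting of overlapping genes touches 2 members. In release 6 Psa overlaps the gene cue on the opposite strand, and CG32473 overlaps the gene CG43208 on its own strand. The level of cue was 6.08, and the ratio of Psa to cue in reads was 0.955 (interval 0.884 to 1.03). CG43208 had a level of 1.15 from about 21 reads. The sources used here do not state whether counting used the strand, and reads of Psa and cue can then not be told apart where they overlap. Reads that fell on more than 1 gene were tallied apart and took 8.94% of all reads, and reads on no gene took 5.34%. For these 2 members a part of their reads may lie among the former, which was not tested. In release 6 the other 6 members overlap no gene classed as protein-coding or as ncRNA. Other classes of gene were not searched.

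The members were set beside 13 other symbols of the family, of which 12 were in the tables. Among these 20 M1 genes the 8 members held 83.4% of the reads. The members were picked with the authors' comparisons in view, and a call in those needs reads. That choice can favour higher levels, so this share and the medians are not an independent contrast. The other 12 had a median level of 2.398, a little under the median of all genes, and 10 of them were above 1. CG31198 and CG31343 were above every other listed family gene. The highest of the others was CG31233, which lies between them, with 6.04 from about 1302 reads. Its ratio to Psa was 1.02 (interval 0.741 to 1.39 with the common dispersion), so that the order of these 2 was not resolved. CG10602, the fly counterpart of leukotriene A4 hydrolase, had 5.26, and Taf2, a TFIID subunit that has the M1 fold without its catalysis, had 5.14. CG14516, superdeath in RefSeq, had 4.26, and these 4 exceeded the lowest member, CG8774. CG4467 had 3.53, just below it.

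CG5849, at 2.67, lay close to the median of all genes. The remaining 6 were below it. CG31445 and CG2111 each had about 64 reads over all libraries. CG11951 had about 29 and CG40470 about 21. CG3502 was seen in 2 reads and CG9806 in 1, where the interval of the latter ran from 0.0253 to 5.57 reads.

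Other peptidase genes gave a scale for these levels. The 15 gut serine proteases, trypsins and Jonah enzymes that cut proteins inside the chain, had a median level of 7.16 and summed to 11054 recovered CPM, against 892.1 for the 8 members. Of these 15 genes epsilonTry was highest, with 11.22, and for 2 of them, gammaTry and deltaTry, no read was counted. Whether reads shared by similar genes were lost from such counts was not tested. CG31198 was lower than 6 of the 15. The 7 sperm leucyl aminopeptidases, which belong to another enzyme family, had a median of 7.08 and summed to 1070 CPM. The 3 dipeptidyl or angiotensin converting peptidases in the tables had a median of 5.21, led by Ance with 7.24, and the 3 other aminopeptidases one of 4.76, led by Dip-B with 7.15. The 5 neprilysins, membrane zinc peptidases that cut small peptides, had a median of 2.94, and Nep2, the highest, had 4.54. None of these orders was tested, as no value of a single sample was analysed here.

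**Figure D3:**
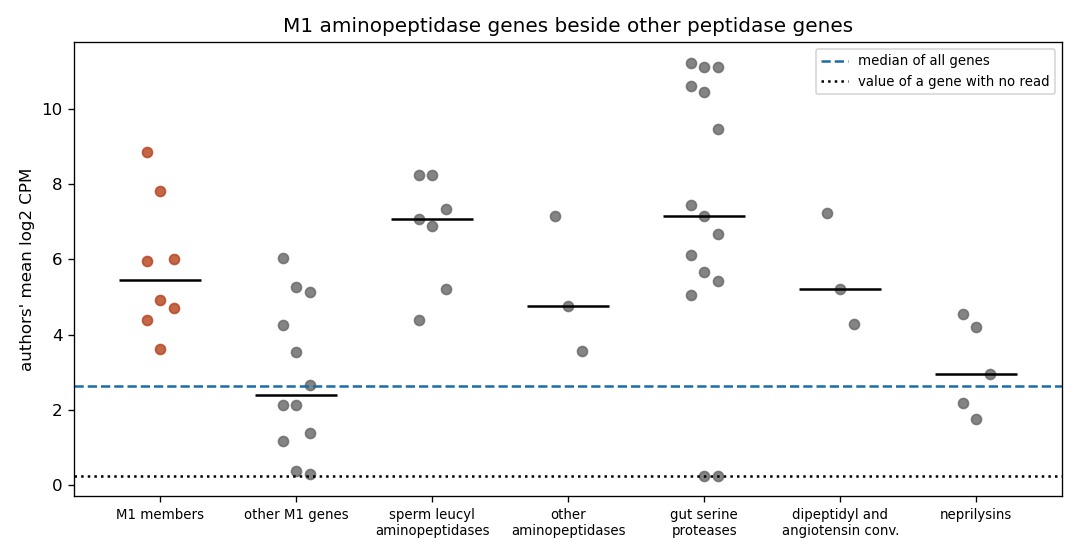
Authors' mean log2 CPM of the 8 M1 members, the 12 other M1 genes in the tables and 5 lists of other peptidases, with 1 point per gene and a black bar at each list's median. The dashed line is the median of all genes (2.64) and the dotted line is the value of a gene with no read (0.25). All 8 members lie above the dashed line, while the other M1 genes spread from 0.30 to 6.04 and several gut serine proteases lie above every member.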

How the data were processed

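RNA of 12 whole-fly samples was made into poly(A)-primed QuantSeq 3′ libraries from 250 ng of total RNA and sequenced in 50 bp reads. According to the sample labels and the methods of the study, the authors de-multiplexed with CASAVA 1.8.2, aligned to dm3 with STAR 2.4, tabulated reads per gene and ran edgeR 3.22.3. They deposited 2 tables, 1 for each Ub6 genotype against control. The deposited log2 CPM is the authors' mean over all libraries with a prior count of 2, is identical in both tables, and is the 1 column used. The other 4 columns of each table hold the authors' own comparison (log2 fold change, likelihood ratio, p-value, FDR) and were left out, so no genotypes were compared. Of 16997 rows, 2 name no gene. They hold 14.3% of the reads, entered the authors' library sizes and were left out of ranks and medians.

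Sample groups follow the genotype labels. The 12 library sizes and a common dispersion (0.146) were solved from the levels of genes with no read or 1 read, and were not assigned to samples. All 78 values predicted for genes with 2 reads were found within 1e-06. Reads behind each level were computed with the prior count removed, assuming 1 rate over all libraries. They are recovered values and not observed counts. Over all genes they summed to 17444499, against 17325730 that the solved library sizes leave for genes. The intervals do not cover this difference, and its source was not tested. Ratios were also given an approximate interval that adds the common dispersion, a step chosen after seeing the data. Whether the authors estimated it within genotypes is not given in the sources used here. The recovery was run on simulated data whose levels came from the same formula. For the library sizes this checks the calculation only, not whether the formula holds for these data. The error of recovered reads in that simulation is not given here. Python 3.11.15, numpy 2.4.6, pandas 2.3.3 and scipy 1.17.1 were used.

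Release 6 names matched 16861 of the 16995 genes, 3695 of them by an older symbol. The members and lists were chosen with earlier results of these data known. Named were all members, further M1 genes by symbol, list members and the genes next to each member. The planned search of protein sequences for further M1 genes was not run, so the family list may be incomplete. Alternatives were the other table, the prior count, the genes ranked, the denominator and the dispersion.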

Additional observations from a re-analysis of the deposited data

How the results depend on the processing

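The other table holds identical levels, so it could not change any result. With the prior count taken out, the levels of the 8 members stayed within counting error. Their order could not change in that step, as the same increasing conversion is applied to every gene. With a dispersion of 0.05 in place of the fitted one, the summed reads stayed within counting error. The conversion to reads does not use the dispersion directly, and the level of genes with no read largely sets the summed library size. This alternative could thus hardly move the summed reads. Ranked among genes with a mean log2 CPM above 1 only, the median member exceeded 76.7% of genes, against 83.9% among all genes, since low genes are left out. The members' share of 0.0902% became 0.102% when divided by the sum over all genes. A pair of alternatives, chosen after seeing the data, left out the reads assigned to no gene or to more than 1 gene. The share was then 0.104% and the median level 5.62 in place of 5.44. The protein identity comparison and its 2 alternatives were not run, as no protein sequences were used here. No replicate could be left out, and no paired analysis was possible because the columns used hold no value of a single sample. Depth limits the rarest family genes, seen in 1 or 2 reads, and counting error alone leaves the order of Psa and CG32473 unresolved.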
